A study of Populus deltoides with 38 samples.

Results

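The loci described here are the 638 of 39572 loci in the deposited expression tables that carry only an assembly number (XLOC) and no gene identifier. They were taken by that missing identifier alone, without regard to their values. The other 38934 loci carry a Populus trichocarpa gene identifier of the form Potri. Of the 638 loci, 544 had a mean of at least 1 FPKM over the 18 libraries and entered the tests. FPKM is a fragment count scaled to transcript length and to the fragments of the library. Just outside that minimum lay XLOC_002482 at 0.996 FPKM and XLOC_032424 at 0.977 FPKM, and just inside it XLOC_006237 at 1.00 FPKM.

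The series compared leaves of the poplar Populus deltoides, 89 days old, under 3 sulfate supplies with and without cadmium (Cd). The +Cd groups received 50 µM CdCl2 for 21 days after 12 days at 0 µM sulfate (+CdL), 100 µM sulfate (+CdM) or 1500 µM sulfate (+CdH). The -Cd groups had the same 3 sulfate supplies with 0 µM CdCl2 (-CdL, -CdM, -CdH). Each group has 3 messenger RNA libraries and 3 small RNA libraries. The labels do not tie libraries to separate plants. The p-values therefore measure only how much these libraries vary, which may be technical.

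A transcript assembler builds such loci wherever reads pile up outside annotated gene models. They can hold non-coding RNAs, primary transcripts of microRNAs (miRNAs), fragments of neighbouring genes or genes the annotation lacks. Sulfate is the source of sulfur for cysteine, glutathione and the phytochelatins that bind Cd in plant cells. A miRNA primary transcript folds into a hairpin, from which a short mature strand is cut that guides the silencing of matching messenger RNAs.

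Some of the 638 loci could be tied to hairpins by position, because the small RNA tables list 784 hairpins with coordinates and sequence. Of these, 35 hairpins lay wholly inside 23 of the loci by their listed positions. When the hairpin coordinates were moved by 20000 bases, 0 and 1 of them lay inside such a locus in either direction. So large a move cannot detect small errors of position. The 23 loci include 21 that hold a hairpin with a poplar miRNA name. The hairpins below sit in the loci whose levels are described later. They are written 5′ to 3′ on the strand listed for the hairpin, with the listed mature small RNA in capitals. The genome build of the coordinates is not given in the sources used here. Listed minus-strand positions disagree with the sequences. At XLOC_037331 a minus-strand hairpin at 14909870-14910023 is the reverse complement of a plus-strand hairpin at 14909777-14909930. At XLOC_033176 a hairpin at 3960785-3960987 contains the MIR159b sequence, listed at 3960940-3961126. Minus-strand positions, those of MIR1444a and MIR159b among them, are therefore uncertain.
MIR1444a, chr8:9457700-9457788, minus strand, in XLOC_020748: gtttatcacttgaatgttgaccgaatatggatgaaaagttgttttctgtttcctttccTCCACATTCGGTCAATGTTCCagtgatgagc
MIR395a, chr2:14658627-14658852, plus strand, in XLOC_005710: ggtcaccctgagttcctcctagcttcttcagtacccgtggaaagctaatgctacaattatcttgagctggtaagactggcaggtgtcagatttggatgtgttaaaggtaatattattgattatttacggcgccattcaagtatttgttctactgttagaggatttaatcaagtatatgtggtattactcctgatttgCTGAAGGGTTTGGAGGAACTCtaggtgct
MIR159b, chr15:3960940-3961126, minus strand, in XLOC_033176: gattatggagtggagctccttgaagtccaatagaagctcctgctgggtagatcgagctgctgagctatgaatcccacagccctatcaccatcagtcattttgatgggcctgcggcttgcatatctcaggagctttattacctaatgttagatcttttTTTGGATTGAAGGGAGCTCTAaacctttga
MIR396b, chr18:14909787-14909918, plus strand, in XLOC_037331: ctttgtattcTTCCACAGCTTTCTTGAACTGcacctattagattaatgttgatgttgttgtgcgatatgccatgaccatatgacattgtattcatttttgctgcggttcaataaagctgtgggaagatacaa
MIR530b, chr4:22216172-22216343, plus strand, in XLOC_010700: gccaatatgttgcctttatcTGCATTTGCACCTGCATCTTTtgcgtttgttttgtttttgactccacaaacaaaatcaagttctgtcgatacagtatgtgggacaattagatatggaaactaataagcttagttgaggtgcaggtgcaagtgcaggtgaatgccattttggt
MIR482a, chr8:8165930-8166036, plus strand, in XLOC_019531: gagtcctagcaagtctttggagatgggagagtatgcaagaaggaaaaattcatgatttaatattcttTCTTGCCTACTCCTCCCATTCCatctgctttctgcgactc
MIR1448, chr8:8166117-8166201, plus strand, in the same XLOC_019531: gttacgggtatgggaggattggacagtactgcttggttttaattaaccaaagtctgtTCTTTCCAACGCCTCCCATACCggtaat
MIR6438b, chr5:1501308-1501530, plus strand, in XLOC_012117: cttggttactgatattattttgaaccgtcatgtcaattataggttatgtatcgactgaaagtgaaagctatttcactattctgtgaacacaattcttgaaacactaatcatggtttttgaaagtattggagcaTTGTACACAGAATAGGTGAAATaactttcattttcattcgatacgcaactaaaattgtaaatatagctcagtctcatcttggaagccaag

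The seed of a miRNA, bases 2 to 8 of the mature strand, is the stretch that first pairs with a target. Among the 23 loci, 3 share the seed of miR166 (XLOC_002780, XLOC_005661 and XLOC_030753), a family known to act on HD-ZIP III transcription factors. The miR159 seed is shared by XLOC_028122 and XLOC_033176, and the miR396 seed by XLOC_014928 and XLOC_037331. miR159 is known for MYB factors and miR396 for growth-regulating factors. The remaining poplar hairpins in the loci gave a seed found at no other of the 23 loci. A soybean-named miR5032 hairpin lies in a pair of loci with the same coordinates. For the families discussed below, the mature strand listed at these loci is printed with the seed in capitals. It need not be the strand of the whole family. The strand printed for miR395 is that of miR395a, listed at 1 hairpin.
miR166: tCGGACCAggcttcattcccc
miR159: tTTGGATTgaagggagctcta
miR396: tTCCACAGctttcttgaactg
miR395: cTGAAGGGtttggaggaactc
miR1444: tCCACATTcggtcaatgttcc
miR530: tGCATTTGcacctgcatcttt
miR482: tCTTGCCTactcctcccattcc
miR172: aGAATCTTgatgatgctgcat
miR156: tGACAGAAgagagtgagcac
miR393: tCCAAAGGgatcgcattgatct

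The loci without identifier lay on all 19 chromosomes. Chromosome 1 held 84 of them, 1.77% of its loci, and chromosome 9 held 10, or 0.593%. By share, chromosome 12 with 39 (2.63% of its loci) and chromosome 17 with 39 (2.50%) came highest. Their spans, end minus start as listed, ran from 154 to 12822 bases with a median of 564, against a median of 2797 bases for the identified loci. A single start site was listed for 620 of the 638 (97.2%), against 78.2% of the identified loci.

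Their levels are not on an equal footing with those of all identified loci. An assembled locus is listed only where reads were found, and 0 of the 638 were at 0 in all 18 libraries. Identified loci are listed even when silent, with a 10th percentile of 0 FPKM. The median of the mean level was 4.51 FPKM, against 2.42 FPKM for identified loci, and 85.3% reached 1 FPKM, against 58.1%. Among tested loci the order was reversed, with medians of 6.28 FPKM and 10.2 FPKM for identified loci. A mean of at least 100 FPKM was found at 70 of the 638 (11.0%), against 2.93% of identified loci. Of these 70, 51 spanned under 250 bases and 8 spanned 500 bases or more, so high FPKM went with short spans. Of the 638 loci, 459 were above 0 in all 18 libraries, and 130 of the 544 tested were listed at 0 in at least 1 library.

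**Figure D1:**
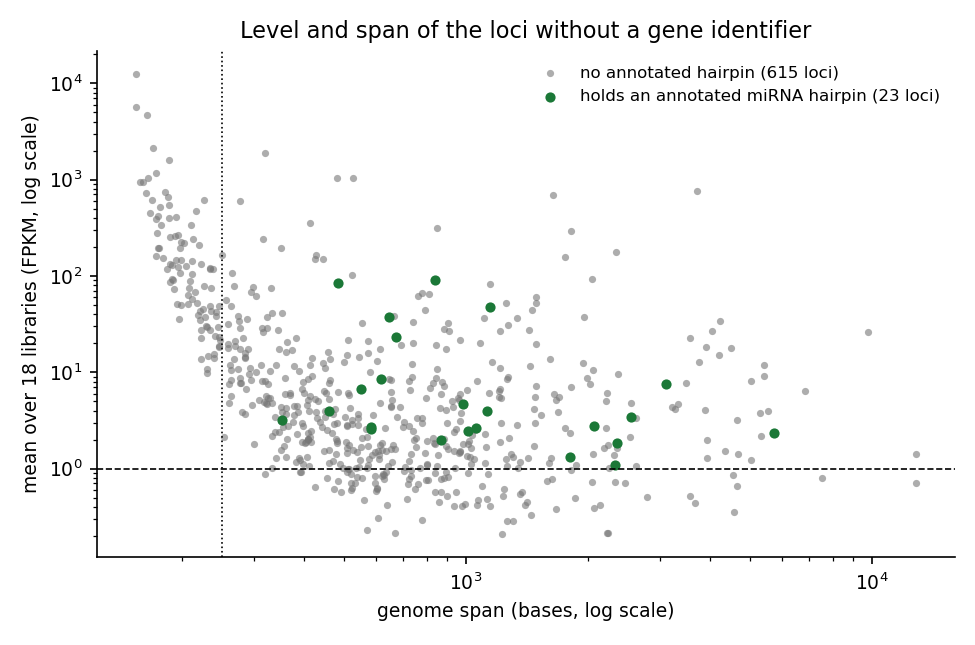
Each point is 1 of the 638 loci, with its genome span in bases on the x axis and its mean over 18 libraries in FPKM on the y axis (both log scales); the dashed line is the 1 FPKM minimum, the dotted line 250 bases, and green points hold an annotated hairpin. The highest levels sit left of the dotted line, and the 23 hairpin loci span 352 to 5739 bases.

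In position the loci were mostly close to annotated genes. The median distance to the nearest identified locus was 2078 bases, 189 loci lay within 1000 bases of it, and the most distant lay 125737 bases away. Only 10 lay inside the span of an identified locus. The longest locus, XLOC_023672 on chr10:17302943-17315765, is among these 10, and averaged 1.43 FPKM. Members also lay beside each other: 162 of them formed 71 runs with gaps of at most 5000 bases, and the longest run had 5 members. The tables list 11 pairs of loci with the same coordinates, whose strand is not given.

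As deposited, their share of all FPKM differed between the groups. Loci without identifier took 5.92 to 11.3% of all FPKM in +CdL libraries, 4.29 to 5.0% in +CdM and 2.82 to 4.46% in +CdH, against 6.55 to 9.99% in the 9 -Cd libraries. Those under 250 bases alone took 1.74 to 3.28% in the +CdM and +CdH libraries, against 4.86 to 8.48% in the -Cd libraries. The ranges did not overlap as deposited. After the rescaling by span given below, loci under 250 bases took 3.26 to 4.60% in the +CdM and +CdH libraries. In the -Cd libraries they then took 3.47 to 7.14%, which overlapped. In the +CdL libraries they took 4.585 to 9.80% as deposited and 4.69 to 13.58% after rescaling. Replicate 3 was the lowest of these as deposited and the highest after rescaling. Loci of 250 bases or more took 1.07 to 2.09% in all 18.

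For each library a unit that depends on the span was fitted so that the low values came near whole multiples of it. Under a first setting, 71.2 to 78.3% of the values under 3.5 fragments lay within 0.25 of a whole number. An even spread gives 50% for a unit fixed beforehand. Here the unit was fitted to these same values, so the share is no test of it. That unit was estimated for each library under 2 settings, which differ in the spans and values they use. Under the first, at a span of 200 bases a fragment was worth 6.09 to 10.3 FPKM in +CdM and +CdH libraries and 5.18 to 18.7 FPKM in +CdL libraries, against 10.7 to 20.5 FPKM in -Cd libraries. Under the second it was worth 6.38 to 10.4 FPKM in +CdM and +CdH libraries, against 5.86 to 18.8 FPKM in -Cd libraries, which overlapped, so the separation of these groups depends on the setting. At 500 bases, under the first setting, it was worth 0.251 to 0.383 FPKM in +CdM and +CdH libraries, against 0.226 to 0.303 FPKM in -Cd libraries. Few low values lie at the shortest spans, 0 to 11 a library under 200 bases, so the estimate there is rough, and it is least certain for +CdL replicate 3. The estimated depth, in units of 1e6 fragments, was 9.48 to 17.8 a library. Values were therefore also rescaled so that the worth of a fragment changes with span in the same way in every library. Differences in worth that go with the estimated depth were kept. The counts on both scales are given. Rescaled values are those of the first setting unless the second is named.

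**Figure D2:**
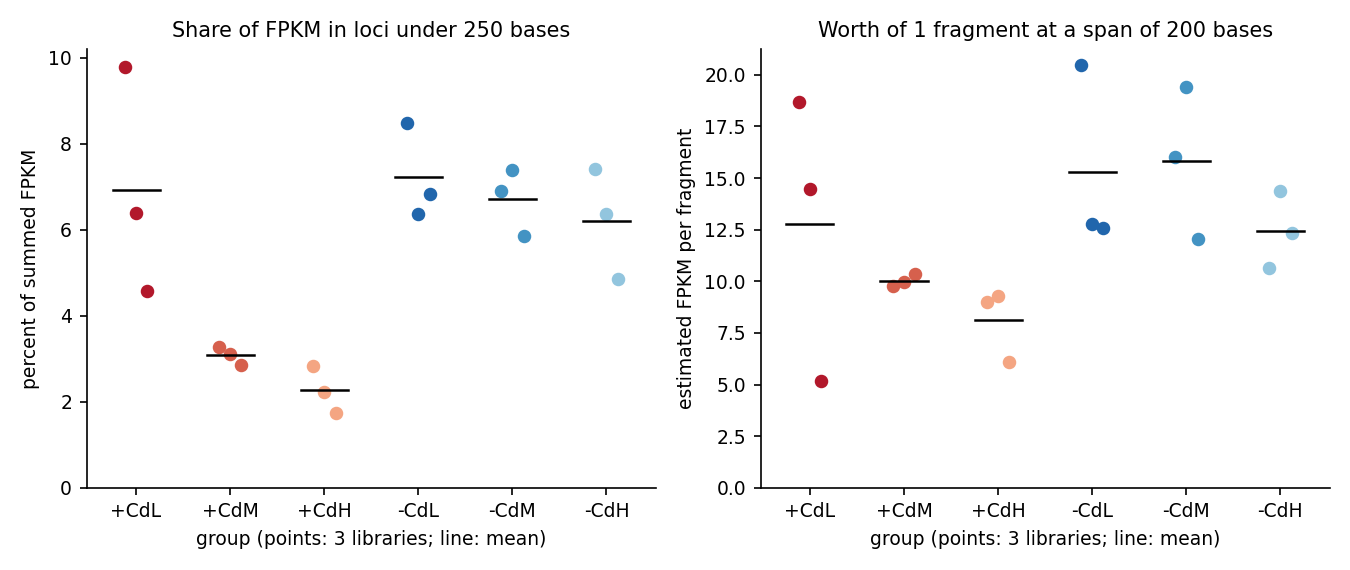
Left, the percent of summed FPKM taken by loci without identifier that span under 250 bases. Right, the estimated FPKM worth of 1 fragment at a span of 200 bases under the first setting of the estimate. Points are the 3 libraries of each group and lines their means. On the left, as deposited, the +CdM and +CdH libraries lie at 1.74 to 3.28%, below all -Cd libraries. After rescaling these shares overlapped.

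Among the 10 highest loci, XLOC_030107, 154 bases at chr13:14839061-14839215 between Potri.013G141200 and Potri.013G141300, had the highest mean of the 638. It had 26974, 23001 and 6675 FPKM in +CdL, 7120, 7526 and 3852 in +CdM and 2089, 2950 and 2277 in +CdH. The -Cd values were 22678, 15613 and 10132 (-CdL), 15633, 24328 and 13480 (-CdM) and 22090, 12970 and 6078 (-CdH). All +CdM and +CdH values but 2 lay below the lowest -Cd value, while +CdL and -CdL overlapped. Averaged over sulfate it was lower with Cd by a log2 change of -1.26 ± 0.30 (SE; limma, Benjamini-Hochberg adjusted p = 0.00644), and after rescaling the change was -0.13 (adjusted p = 0.714; -0.54 and 0.143 under the second setting).

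XLOC_005828, 164 bases at chr2:17465805-17465969, had 4990, 4643 and 3755 FPKM in +CdL, 2815, 1931 and 1947 in +CdM and 1340, 1654 and 1780 in +CdH, against 7888, 5054 and 5781 in -CdL, 4350, 9459 and 7632 in -CdM and 9068, 5314 and 3872 in -CdH. Each +Cd group lay below its -Cd group without overlap. The change was -1.32 ± 0.18 (limma adjusted p = 9.4e-05), and -0.26 after rescaling (adjusted p = 0.577; -0.63 and 0.128 under the second setting). Of the other loci in the top 10, XLOC_011338, XLOC_027160 and XLOC_010657 were likewise called lower with Cd as deposited and under neither setting of the rescaling. XLOC_007238 was called in no comparison, and XLOC_004587 in the sulfate comparison below.

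The top 10 also hold 3 loci of 250 bases or more, where a fragment weighs little. XLOC_035758, 319 bases at chr17:12681654-12681973, had a mean of 1881 FPKM and was called in no comparison. Its 9 +Cd libraries ran from 1294 to 2862 FPKM and its 9 -Cd libraries from 1475 to 2976 FPKM, which overlapped. XLOC_029866, 480 bases at chr13:10501806-10502286, lies 166 bases from Potri.013G096700 and ranged from 0 to 4076 FPKM. It was listed at 0 in 1 -CdL and 1 -CdH library while the other 2 libraries of each group were at 1035 FPKM or more, and it was not called. XLOC_016633 belongs to the sulfate results below.

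Averaged over the 3 sulfate supplies, 32 loci without identifier were higher and 131 lower with Cd (limma on log2(FPKM + 1), Benjamini-Hochberg adjusted p under 0.05). That is 5.88% and 24.1% of the 544, and in all 23166 loci tested 11.9% were higher and 16.2% lower. The difference between these shares was not tested. Their median log2 change was -0.21, against -0.00 over all loci. After rescaling, 47 were higher and 91 lower (8.64% and 16.7%, against 12.6% and 15.5% of all loci), and the median was -0.03. Under the second setting 45 were higher and 95 lower (8.27% and 17.5%, against 12.6% and 15.5% of all loci). Under the first setting all 32 higher calls were kept, and 91 of the 131 lower calls. In bulk leaf RNA, fewer cells of a type and less RNA per cell cannot be told apart.

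The calls that differed between the scales were mostly at short spans. Among the 94 loci under 250 bases, 34 (36.2%) were lower and 1 higher as deposited. After rescaling 7 (7.45%) were lower and 10 higher, and under the second setting 12 were lower and 7 higher. Of the 37 tested identified loci under 250 bases, 3 (8.11%) were lower and 0 higher as deposited, and 1 (2.7%) and 0 after rescaling. The difference between these shares was not tested. Among the 274 loci of 500 bases or more, 59 were lower and 24 higher as deposited, 54 and 26 after rescaling, and 55 and 27 under the second setting. For identified loci of 500 bases or more, 16% were lower and 12.1% higher as deposited.

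**Figure D3:**
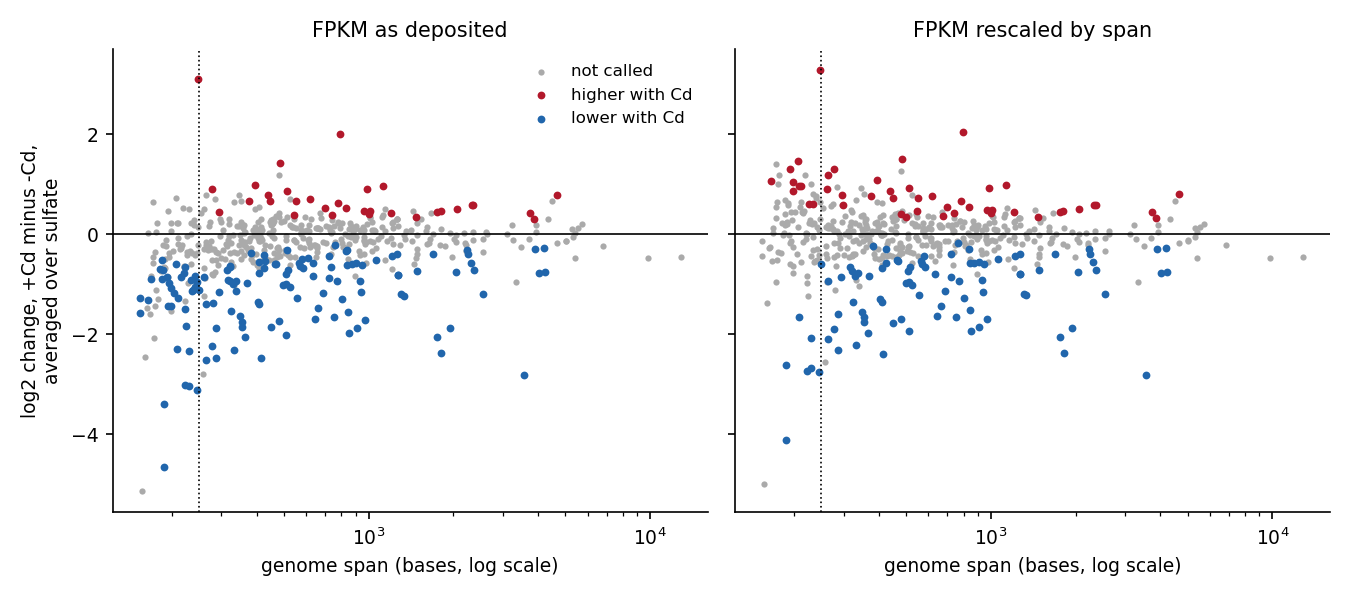
Each point is 1 of the 544 tested loci, with its span in bases (log scale) on the x axis and its log2 change with Cd, +Cd minus -Cd averaged over sulfate, on the y axis; left as deposited, right rescaled. Red points are called higher with Cd and blue points lower. Left of the dotted line at 250 bases, 34 loci are blue on the left panel and 7 on the right.

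The locus with the largest rise over all 3 supplies among the named ones was XLOC_023314, 794 bases at chr10:12168106-12168900 between Potri.010G100000 and Potri.010G100100. It had 131, 158 and 143 FPKM in +CdL, against 18.4, 13.7 and 11.4 in -CdL. At middle sulfate it had 31.5, 51.2 and 53.1 FPKM in +CdM, against 13.6, 13.6 and 14.1 in -CdM. At high sulfate the values were 43.4, 37.4 and 25.6 FPKM in +CdH, against 9.75, 17.3 and 19.0 in -CdH. No +Cd library overlapped a -Cd library, and the +CdL libraries stood far above the other +Cd libraries. The log2 change was 3.25 ± 0.25 in the low, 1.61 ± 0.25 in the middle and 1.18 ± 0.25 in the high supply (limma adjusted p = 3.71e-05, 0.0004 and 0.00668), and these 3 changes differed (interaction adjusted p = 0.00836). No annotation names the locus.

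XLOC_020748, 485 bases at chr8:9457348-9457833, holds the MIR1444a hairpin printed above by its listed minus-strand position. miR1444 is a miRNA known in poplar for acting on polyphenol oxidase transcripts. The locus had 165, 255 and 164 FPKM in +CdL, against 61.6, 45.4 and 37.6 in -CdL. It had 75, 97.4 and 96.2 FPKM in +CdM, against 47.8, 58.3 and 27.8 in -CdM, and 101, 70.1 and 91.9 in +CdH, against 29.7, 39.7 and 39.3 in -CdH. At every supply all +Cd values lay above all -Cd values. It rose by 1.43 ± 0.15 on the log2 scale averaged over sulfate (limma adjusted p = 7.87e-06). XLOC_008351, 394 bases at chr3:18941771-18942165, completes the named increases. Its +Cd values were 2.80, 1.71 and 1.43 FPKM in +CdL, 2.79, 3.20 and 1.68 in +CdM and 2.22, 8.03 and 2.04 in +CdH. Its -Cd values were 0.976, 0.901 and 0.819 FPKM in -CdL, 0.965, 1.61 and 0 in -CdM and 0.438, 0.473 and 1.57 in -CdH. The groups were separate at each supply (limma log2 change 1.00 ± 0.23, adjusted p = 0.00542), with a median of 2.96 fragments a library estimated under the first setting. At high sulfate alone its change was 1.34 ± 0.40 (limma adjusted p = 0.0397), a call lost in 7 of 27 alternative settings.

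The named decreases averaged over sulfate were all shorter than 250 bases and rested on few fragments. XLOC_013228, 187 bases, lies 169 bases from Potri.005G240100. It had 114, 0 and 0 FPKM in +CdL, 0, 23.3 and 0 in +CdM and 41.8, 0 and 17.7 in +CdH, against 115, 125 and 289 in -CdL, 323, 87.8 and 31.4 in -CdM and 130, 143 and 126 in -CdH. It was at 0 in 5 of 9 +Cd libraries and in no -Cd library, with a median of 2.94 fragments estimated under the first setting (limma log2 change -4.66 ± 1.06, adjusted p = 0.0052; -4.10 and 0.00998 after rescaling). XLOC_019117, 187 bases, had log2 change -3.40 ± 0.87 (limma adjusted p = 0.0105; 0.0497 after rescaling). XLOC_010701, 246 bases, had -3.12 ± 0.75 (limma adjusted p = 0.00723; 0.0148 after rescaling). XLOC_010701 lies 1058 bases from the MIR530b locus XLOC_010700, which was lower with Cd as well.

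At low sulfate, 3 loci were higher with Cd and 0 lower, against 0.319% higher and 0.397% lower of all loci tested (limma). At an unadjusted p under 0.05, 66 of the 544 differed. After rescaling 4 were higher and 0 lower (0.311% and 0.393% of all loci), and without +CdH replicate 3 the count was 5. The 3 were XLOC_023314, XLOC_020748 and XLOC_033176, and these same 3 were the only loci without identifier called higher with Cd at all 3 supplies.

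XLOC_033176, 619 bases at chr15:3960586-3961205, holds MIR159b by its listed minus-strand position. It had 16, 15 and 13.2 FPKM in +CdL, against 9.27, 7.88 and 7.50 in -CdL. It had 8.43, 7.94 and 10.1 FPKM in +CdM, against 5.59, 4.08 and 4.92 in -CdM, and 10, 9.34 and 8.27 in +CdH, against 5.57, 5.99 and 5.44 in -CdH. The groups were separate at every supply, with narrow spreads. At low sulfate the change was 0.77 ± 0.12 (limma adjusted p = 0.00651), and the adjusted p was 0.0686 in a limma fit of the +CdL and -CdL libraries alone.

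At middle sulfate, 18 loci were higher and 109 lower with Cd, 3.31% and 20.0% of the 544, against 7.71% and 13.1% of all loci tested. After rescaling 23 were higher and 79 lower (8.44% and 12.6% of all loci). The median log2 change was -0.34 as deposited and -0.16 after rescaling. Among loci of 500 bases or more, 52 were lower as deposited and 50 after rescaling.

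The increases at middle sulfate included 2 loci not yet described. XLOC_037331, 984 bases at chr18:14909463-14910447 and 407 bases from Potri.018G126700, holds MIR396b. It had 4.95, 4.99 and 5.99 FPKM in +CdM, against 1.67, 1.32 and 0.121 in -CdM, and no values overlapped (limma log2 change 1.72 ± 0.27, adjusted p = 0.00048). At high sulfate it had 4.74, 6.42 and 5.38 FPKM in +CdH, against 5.28, 4.35 and 3.38 in -CdH, which overlapped. XLOC_035177, 207 bases at chr17:576953-577160, had 30.5, 52.6 and 68.0 FPKM in +CdM, against 12.7, 27.5 and 0 in -CdM. Its change of 2.74 ± 0.88 (limma adjusted p = 0.0401) lost its call in 9 of 27 alternative settings, among them without each +CdM library.

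The named decreases at middle sulfate were highest in -CdM. XLOC_038862, 413 bases at chr19:15020302-15020715, had 1.25, 0 and 1.51 FPKM in +CdM, against 14.2, 27.6 and 31.7 in -CdM. Its other groups were at 0, 1.01 and 0 FPKM in +CdL, 0, 0.596 and 0 in +CdH, 0.869, 2.80 and 1.83 in -CdL and 5.80, 7.15 and 4.65 in -CdH. Every -CdM library was above every library of the other 5 groups (limma log2 change at middle sulfate -3.77 ± 0.40, adjusted p = 1.82e-05). XLOC_010176, 222 bases at chr4:9765311-9765533, had 5.20, 0 and 6.04 FPKM in +CdM, against 67.5, 81.5 and 39.3 in -CdM (-4.12 ± 0.84, limma adjusted p = 0.00308). XLOC_001641, 230 bases at chr1:33810195-33810425, had 3.92, 0 and 4.51 FPKM in +CdM, against 30.1, 51.7 and 39.4 in -CdM (-3.75 ± 0.89, limma adjusted p = 0.00795; 0.0697 on log2(FPKM + 0.1)).

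At high sulfate, 18 loci were higher and 89 lower with Cd, 3.31% and 16.4%, against 4.82% and 8.59% of all loci tested. After rescaling 26 were higher and 58 lower (5.45% and 8.05% of all loci), and the median log2 change was -0.03 in place of -0.23. Of the 109 loci lower at middle sulfate, 67 were also lower at high sulfate, which is 67 of the 89 there. After rescaling 46 were shared between the 79 lower at middle and the 58 lower at high sulfate. The same overlap over all loci tested was not counted. The count of 107 in both directions (19.7%, against 13.4% of all loci) was 65 without -CdH replicate 1, 68 without -CdH replicate 2, 70 without +CdH replicate 2, and 66 in a fit of the +CdH and -CdH libraries alone.

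XLOC_035143, 850 bases at chr17:209016-209866, had 32.5, 70.6 and 0 FPKM in +CdH, against 286, 404 and 151 in -CdH, with no overlap (limma log2 change -4.28 ± 1.08, adjusted p = 0.0188; -4.23 after rescaling). Its call was lost without -CdH replicate 1 or 2. XLOC_024216, 209 bases at chr10:2916096-2916305, had 0, 8.27 and 6.41 FPKM in +CdH, against 84.0, 78.7 and 80.2 in -CdH (-4.32 ± 0.77, limma adjusted p = 0.00232; 0.0241 after rescaling). XLOC_029292, 157 bases, was listed at 0 in all +CdM and +CdH libraries, against 2268, 1854 and 2104 FPKM in -CdH and 0, 0 and 1056 FPKM in -CdM. At low sulfate it had 1292, 1098 and 0 FPKM in +CdL, against 2619, 0 and 4859 in -CdL, which overlapped. Its call at high sulfate (limma adjusted p = 0.0455) was lost in 12 of 27 alternative settings. The named increases at high sulfate were XLOC_008351 and XLOC_020748, described above, and XLOC_002588, 402 bases at chr1:3434280-3434682. It had 3.42, 2.77 and 1.61 FPKM in +CdH, against 0.434, 0 and 1.06 in -CdH, and 0.481, 0.478 and 0.588 FPKM in +CdM, against 3.38, 1.07 and 2.50 in -CdM. It was higher with Cd at high sulfate and lower at middle sulfate (1.29 ± 0.35 and -1.06 ± 0.35, limma adjusted p = 0.0237 and 0.0417). The high-sulfate call was lost in 5 of 27 alternative settings, namely in a fit of +CdH and -CdH alone and without +CdH replicate 1 or 2 or -CdH replicate 1 or 2. The middle-sulfate call was lost after rescaling (adjusted p = 0.0542).

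Low against middle sulfate, averaged over Cd, gave 76 higher and 58 lower loci, 14% and 10.7%, against 12.2% and 14.6% of all loci tested. After rescaling the counts were 72 and 58 (12.1% and 14.6% of all loci), and 72 and 57 of the calls were the same loci. The median log2 change was 0.16, against 0.01 over all loci.

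Among the named increases at low sulfate was XLOC_005710, 1147 bases at chr2:14658610-14659757, which holds MIR395a. miR395 is the miRNA of sulfate assimilation, known to act on ATP sulfurylase and sulfate transporter messenger RNAs. The locus had 146, 105 and 120 FPKM in +CdL and 87.8, 60.6 and 67.3 in -CdL, against 21.4, 34.0 and 7.62 in +CdM and 28.8, 37.8 and 21.3 in -CdM. At high sulfate it had 10.1, 10.5 and 7.29 FPKM in +CdH and 20.8, 39.8 and 38.9 in -CdH. Every low-sulfate library was above every other library (limma log2 change 2.00 ± 0.28, adjusted p = 0.000194). Its Cd effect differed between supplies (interaction adjusted p = 0.0464, 0.0512 after rescaling, 0.0494 under the second setting), with a decrease at high sulfate of -1.69 ± 0.39 (limma adjusted p = 0.0115). XLOC_004587, 165 bases, rose by 1.72 ± 0.40 at low sulfate (limma adjusted p = 0.00562; 0.00654 after rescaling).

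Among the decreases at low sulfate was 1 of the 10 highest loci. XLOC_016633, 527 bases at chr6:9535090-9535617, had 66.9, 474 and 283 FPKM in +CdL and 344, 494 and 750 in -CdL, against 2050, 1120 and 1049 in +CdM and 1459, 1611 and 1453 in -CdM. High-sulfate values were 1427, 1106 and 1286 FPKM in +CdH and 888, 1295 and 1444 in -CdH. All 6 low-sulfate libraries lay below the other 12 (limma log2 change -2.13 ± 0.36, adjusted p = 0.000789). XLOC_018882, 316 bases at chr7:15484250-15484566, had 6.38, 71.8 and 75.7 FPKM in +CdL and 112, 75.9 and 52.7 in -CdL, against 402, 371 and 291 in +CdM and 352, 306 and 216 in -CdM (-2.62 ± 0.45, limma adjusted p = 0.000817). XLOC_016412, 525 bases at chr6:5927931-5928456, had 0, 11.5 and 54.3 FPKM in +CdL and 4.04, 4.53 and 1.37 in -CdL, against 353, 67.4 and 62.7 in +CdM and 163, 156 and 115 in -CdM (-4.43 ± 0.90, limma adjusted p = 0.00302). None of these 3 had a Cd call in any comparison, and at each the low-sulfate libraries lay below the middle-sulfate ones without overlap. The named decreases also include XLOC_010176 (-3.26 ± 0.59, limma adjusted p = 0.00131), which did have a Cd call at middle sulfate, given above.

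High against middle sulfate gave 0 higher and 17 lower loci (limma), 3.12% lower against 1.63% of all loci tested, and 0.229% of all loci were higher. At an unadjusted p under 0.05, 104 of the 544 differed. After rescaling 10 were lower (1.36% of all loci), and the count went to 0 without -CdM replicate 2, -CdM replicate 3, -CdH replicate 1, -CdH replicate 2, +CdM replicate 3 or +CdH replicate 3. It was 2 without +CdM replicate 1, 9 without -CdL replicate 2 and 10 without +CdL replicate 1. The 3 named decreases are high in -CdM. XLOC_036969, 1755 bases at chr18:6926137-6927892, lies 60549 bases from the nearest identified locus. It had 48.8, 51.9 and 44.4 FPKM in +CdL, 103, 68.2 and 98.4 in +CdM and 33.9, 39.0 and 10.2 in +CdH, against 52.2, 85.6 and 105 in -CdL, 342, 534 and 515 in -CdM and 211, 181 and 286 in -CdH. The -CdM libraries stood above all others, and the -CdH libraries above all but those. The change between high and middle sulfate was -1.43 ± 0.27 (limma adjusted p = 0.0302), and with Cd at middle sulfate -2.35 ± 0.39 (adjusted p = 0.000621). XLOC_008344, 332 bases at chr3:18860407-18860739, had 13.9, 34.5 and 17.7 FPKM in -CdM and at most 7.56 FPKM in any other library. XLOC_033086, 278 bases at chr15:1607459-1607737, had 68.4, 87.1 and 152 FPKM in -CdM and at most 41.0 FPKM elsewhere. Its sulfate call (limma adjusted p = 0.0495) was lost in 21 of 28 alternative settings, rescaling, quantile normalization and the replicate block among them.

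The Cd effect differed between sulfate supplies at 45 loci (moderated F test of limma, adjusted p under 0.05), which is 8.27% of the 544, against 4.26% of all loci tested. After rescaling 34 were called (6.25%, against 4.14% of all loci), of which 33 were among the 45. The count was 25 without -CdL replicate 1, 25 without -CdL replicate 2 and 27 without +CdL replicate 1. No locus under 250 bases was among the 45. In 30 of the 45 (66.7%) the highest group mean was that of -CdM, against 492 of 943 called identified loci (52.2%). The 1 FPKM minimum bears on this share, since a locus low elsewhere entered only if some group was high. XLOC_006237, for example, averaged 4.04 FPKM in -CdM and at most 1.12 FPKM in any other group. How much of the share comes from the minimum was not tested. In 11 (24.4%) it was that of +CdL, against 214 of 943 (22.7%). The lowest mean was in +CdH in 25 of the 45, against 376 of 943. The differences between these shares were not tested.

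Of the 3 loci with the smallest interaction p-values, XLOC_001643 and XLOC_006237 were of low level, with means of 1.54 and 1.00 FPKM. XLOC_030099 averaged 8.15 FPKM. XLOC_001643, 350 bases at chr1:33813474-33813824, was listed at 0 in all 9 +Cd libraries, against 0, 0 and 0.637 FPKM in -CdL, 5.39, 7.70 and 7.50 in -CdM and 1.98, 2.23 and 2.37 in -CdH (limma interaction adjusted p = 0.000588). XLOC_006237, 772 bases at chr2:1275210-1275982, had 0.203, 0.193 and 0 FPKM in +CdM, against 3.74, 5.30 and 3.08 in -CdM, and at most 1.32 FPKM in any library outside -CdM (interaction adjusted p = 0.00128). XLOC_030099, 1063 bases at chr13:14768155-14769218, had another form. It had 2.57, 2.86 and 2.07 FPKM in +CdM, against 9.63, 9.46 and 10.1 in -CdM, but 17.1, 9.51 and 12.0 FPKM in +CdL, against 9.50, 6.27 and 8.14 in -CdL (interaction adjusted p = 0.00153). The values were separate at middle sulfate, and at low sulfate the lowest +CdL value, 9.51, was next to the highest -CdL value, 9.50, with no call.

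**Figure D4:**
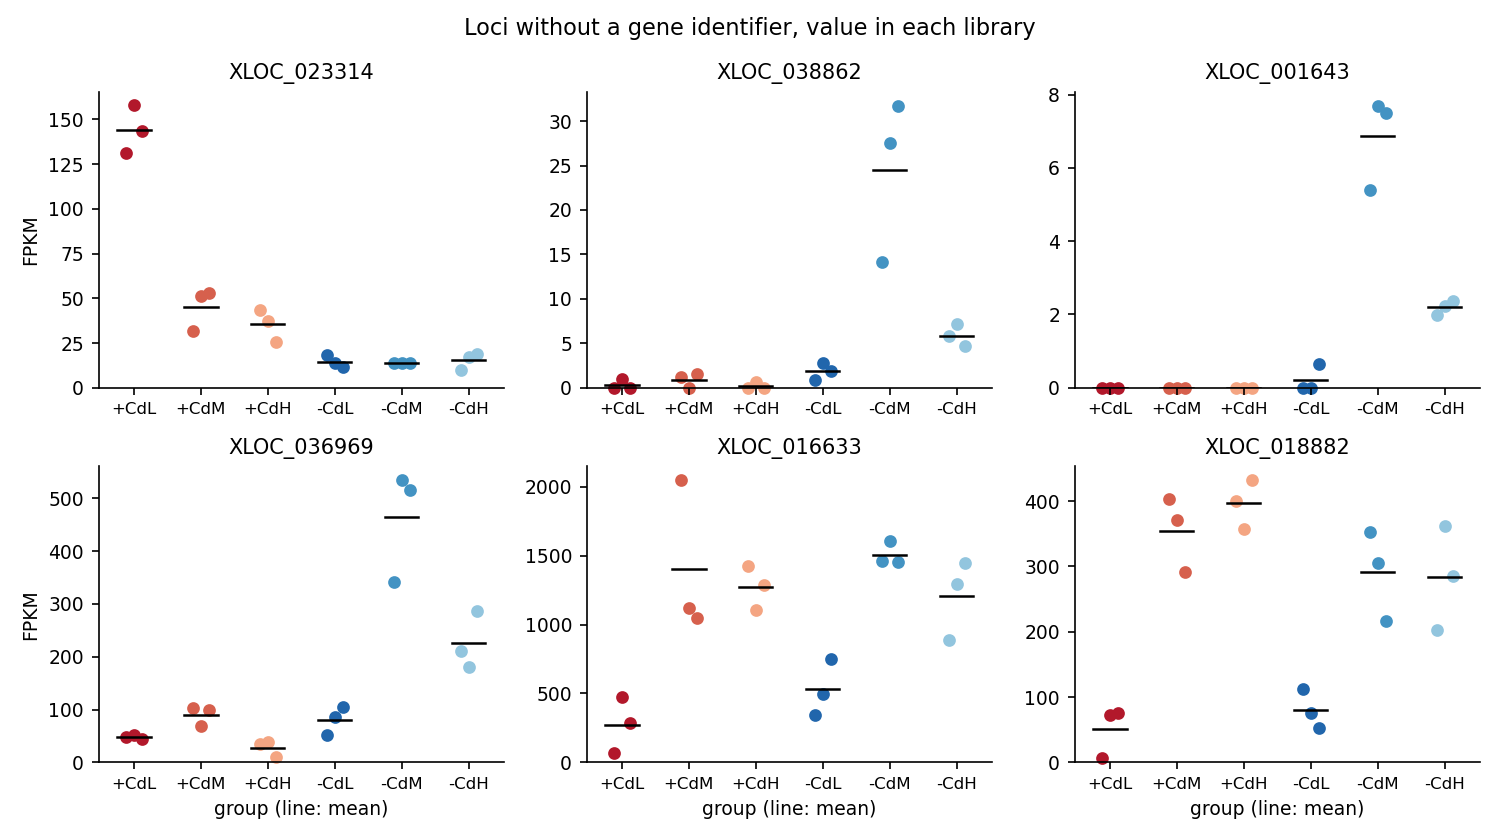
FPKM of 6 loci without identifier in each of the 18 libraries, by group on the x axis; points are libraries and lines group means. XLOC_023314 is highest in +CdL at 131 to 158 FPKM, XLOC_038862, XLOC_001643 and XLOC_036969 are highest in -CdM, and XLOC_016633 and XLOC_018882 are lowest in the low-sulfate groups.

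Of 74 pairs of tested loci within 5000 bases of each other and not overlapping, both members were lower with Cd at middle sulfate in 13, both were higher in 0, and 22 had a call in 1 member only. At low against middle sulfate both were higher in 12 pairs, both lower in 2, and opposite in 1. For scale, 20.0% of the 544 loci were lower with Cd at middle sulfate and 14% were higher at low against middle sulfate. Whether such pairs share calls more often than other loci, or belong to 1 transcript, was not tested. A run on chromosome 1 holds XLOC_001641 and XLOC_001643, 3049 bases apart, which share the -CdM maximum. Of the 109 loci lower with Cd at middle sulfate, 50 had a tested nearest identified locus, of which 15 were lower and 2 higher. Over all loci tested, 13.1% were lower and 7.71% higher there. Of the 76 higher at low sulfate, 44 had a tested one, of which 14 were higher and 1 lower, against 12.2% and 14.6% of all loci tested. These differences were not tested.

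In some of the pairs listed with the same coordinates the calls differed. XLOC_010262 and XLOC_011438 both lie at chr4:13200611-13201196 and hold the same miR5032 hairpin, listed with a soybean name. XLOC_011438 was lower with Cd averaged over sulfate (log2 change -0.68, limma adjusted p = 0.00602), and XLOC_010262 was not called (-0.07, adjusted p = 0.671). Likewise XLOC_027238 was lower (-1.29, limma adjusted p = 6.93e-06), and its partner XLOC_028014 was not called (-0.17, adjusted p = 0.521). The same held for XLOC_000951 (-0.72, limma adjusted p = 0.012) and XLOC_003396 (-0.24, adjusted p = 0.746). Neither member was called for this change in the pairs XLOC_001867 with XLOC_004329 and XLOC_010765 with XLOC_011946. XLOC_030099 and XLOC_029276 share coordinates with mean levels of 8.15 and 0.416 FPKM. Since no strand is listed, reads of the members of such a pair cannot be assigned by the tables alone.

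The 23 hairpin loci, taken by listed hairpin positions, had mean levels of 1.09 to 90.7 FPKM, and none spanned under 250 bases. Averaged over sulfate, 10 of the 23 were higher and 4 lower with Cd, where 11.9% and 16.2% of all loci were. At low against middle sulfate 10 were higher and 1 lower, where 12.2% and 14.6% of all loci were. Rescaling changed neither count. With Cd at middle sulfate 6 were higher and 4 lower (7.71% and 13.1% of all loci). At high sulfate 2 were higher and 5 lower (4.82% and 8.59% of all loci), and at low sulfate 2 were higher and 0 lower (0.319% and 0.397% of all loci).

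The 10 with a rise with Cd were the loci of MIR1444a, MIR159a, MIR159b, MIR396a, MIR396b, MIR166a, MIR166c, MIR166j, MIR172c and MIR393c. miR172 is known for AP2-type factors and miR393 for auxin receptors. Outside those described above, the changes were 0.46 to 0.97 on the log2 scale, with mean levels of 1.09 to 6.65 FPKM. MIR159a in XLOC_028122, for example, had 6.11, 10.1 and 7.78 FPKM in +CdM, against 4.79, 2.81 and 3.51 in -CdM, without overlap (0.93 ± 0.24, limma adjusted p = 0.0113). MIR393c in XLOC_033663 had the largest of these changes averaged over sulfate, 0.97 ± 0.30 (limma adjusted p = 0.0241).

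The 4 with a fall were the loci of MIR530b, MIR6438b, MIR482a with MIR1448, and one of the miR5032 pair. XLOC_010700, holding MIR530b, had 12.2, 24.5 and 25.9 FPKM in +CdM, against 77.5, 65.5 and 49.9 in -CdM, and 2.88, 8.14 and 19.7 in +CdH, against 55.0, 54.5 and 61.4 in -CdH. The groups were separate at both supplies (limma log2 change -1.62 ± 0.48 and -2.68 ± 0.48, adjusted p = 0.0256 and 0.00202). XLOC_019531, which holds MIR482a and MIR1448, 2 miRNAs known for acting on NBS-LRR resistance genes, had 66.0, 66.3 and 77.7 FPKM in +CdM, against 118, 167 and 147 in -CdM. At low sulfate it had 85.5, 84.7 and 77.2 FPKM in +CdL, against 73.1, 78.8 and 94.7 in -CdL, which overlapped (interaction adjusted p = 0.0323, 0.0502 after rescaling, 0.0395 under the second setting). XLOC_012117, holding MIR6438b, had 2.73, 1.5 and 1.37 FPKM in +CdM, against 9.44, 9.87 and 10.7 in -CdM, and was also highest in -CdM of all groups (limma log2 change -1.97 ± 0.21, adjusted p = 1.94e-05).

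The 10 with a rise at low against middle sulfate included MIR395a, MIR1444a, MIR159a, MIR159b, MIR396b, MIR166c, MIR166j, MIR167f and MIR156e. miR156 is known for SPL factors and miR167 for auxin response factors. XLOC_037602, holding MIR156e, had 5.21, 2.97 and 3.69 FPKM in +CdL and 3.28, 4.14 and 4.32 in -CdL, against 1.31, 0.661 and 1.87 in +CdM and 2.21, 2.15 and 2.59 in -CdM, with no overlap (limma log2 change 0.85 ± 0.15, adjusted p = 0.00101). The remaining locus was XLOC_011438 of the miR5032 pair.

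The small RNA libraries show the mature strands of the same hairpins in other libraries, given as reads scaled to those assigned in each table (CPM), as a description without a test. They hold 498205 to 2934278 assigned reads each. Mature miR1444a averaged 9819 ± 3655 CPM in +CdL, 9848 ± 612 in +CdM and 11600 ± 2141 in +CdH (SD, n = 3 each), against 4570 ± 870 in -CdL, 4356 ± 788 in -CdM and 5327 ± 226 in -CdH. All 9 +Cd libraries were above all 9 -Cd libraries, as at the locus. Mature miR395a had 58.5, 96.0 and 163 CPM in +CdL and 141, 124 and 135 in -CdL, and 11.5 to 22.8 in the 12 libraries at middle and high sulfate. The 6 low-sulfate libraries were above all others, again as at the locus. Mature miR530b averaged 445 ± 196 in +CdM, against 846 ± 160 in -CdM, and 519 ± 252 in +CdH, against 893 ± 187 in -CdH (SD, n = 3 each). The middle-sulfate libraries were separate and the high-sulfate ones overlapped.

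Mature miR6438a, listed at 2 hairpins, had 8.32, 7.57 and 7.93 CPM in +CdM, against 10.7, 13.0 and 19.4 in -CdM, separate and lower as at XLOC_012117. High-sulfate values were 1.24, 5.66 and 4.01 CPM in +CdH, against 11.6, 8.54 and 12.9 in -CdH, also separate. At low sulfate miR6438a had 1.52, 4.69 and 28.0 CPM in +CdL, against 2.49, 7.61 and 15.8 in -CdL, which overlapped. Such low levels rest on few reads. Mature miR159a, listed at the 2 miR159 hairpins of these loci, had 44687, 32558 and 39080 CPM in +CdL, against 32133, 26409 and 32503 in -CdL. Those libraries were separate by a narrow margin, and at middle sulfate its libraries overlapped.

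Mature miR396a, listed at both miR396 hairpins, had 9086, 13002 and 10417 CPM in +CdL, against 27404, 25634 and 20139 in -CdL. The MIR396b locus XLOC_037331 was at 8.74, 7.91 and 6.15 FPKM in +CdL, against 6.02, 4.01 and 2.97 in -CdL, a difference that was not called. The locus XLOC_019531 holds a pair of strands. Mature miR1448 had 132699, 107937 and 141905 CPM in +CdM, against 141006, 193989 and 148484 in -CdM, which overlapped only in that the highest +CdM library was above the lowest -CdM library. Mature miR482a had 80153, 72281 and 57152 CPM in +CdM, against 81015, 71985 and 87976 in -CdM, which overlapped. A mature strand that several hairpins share cannot be assigned to a locus, and the strand of miR166 is listed at 12 hairpins.

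**Figure D5:**
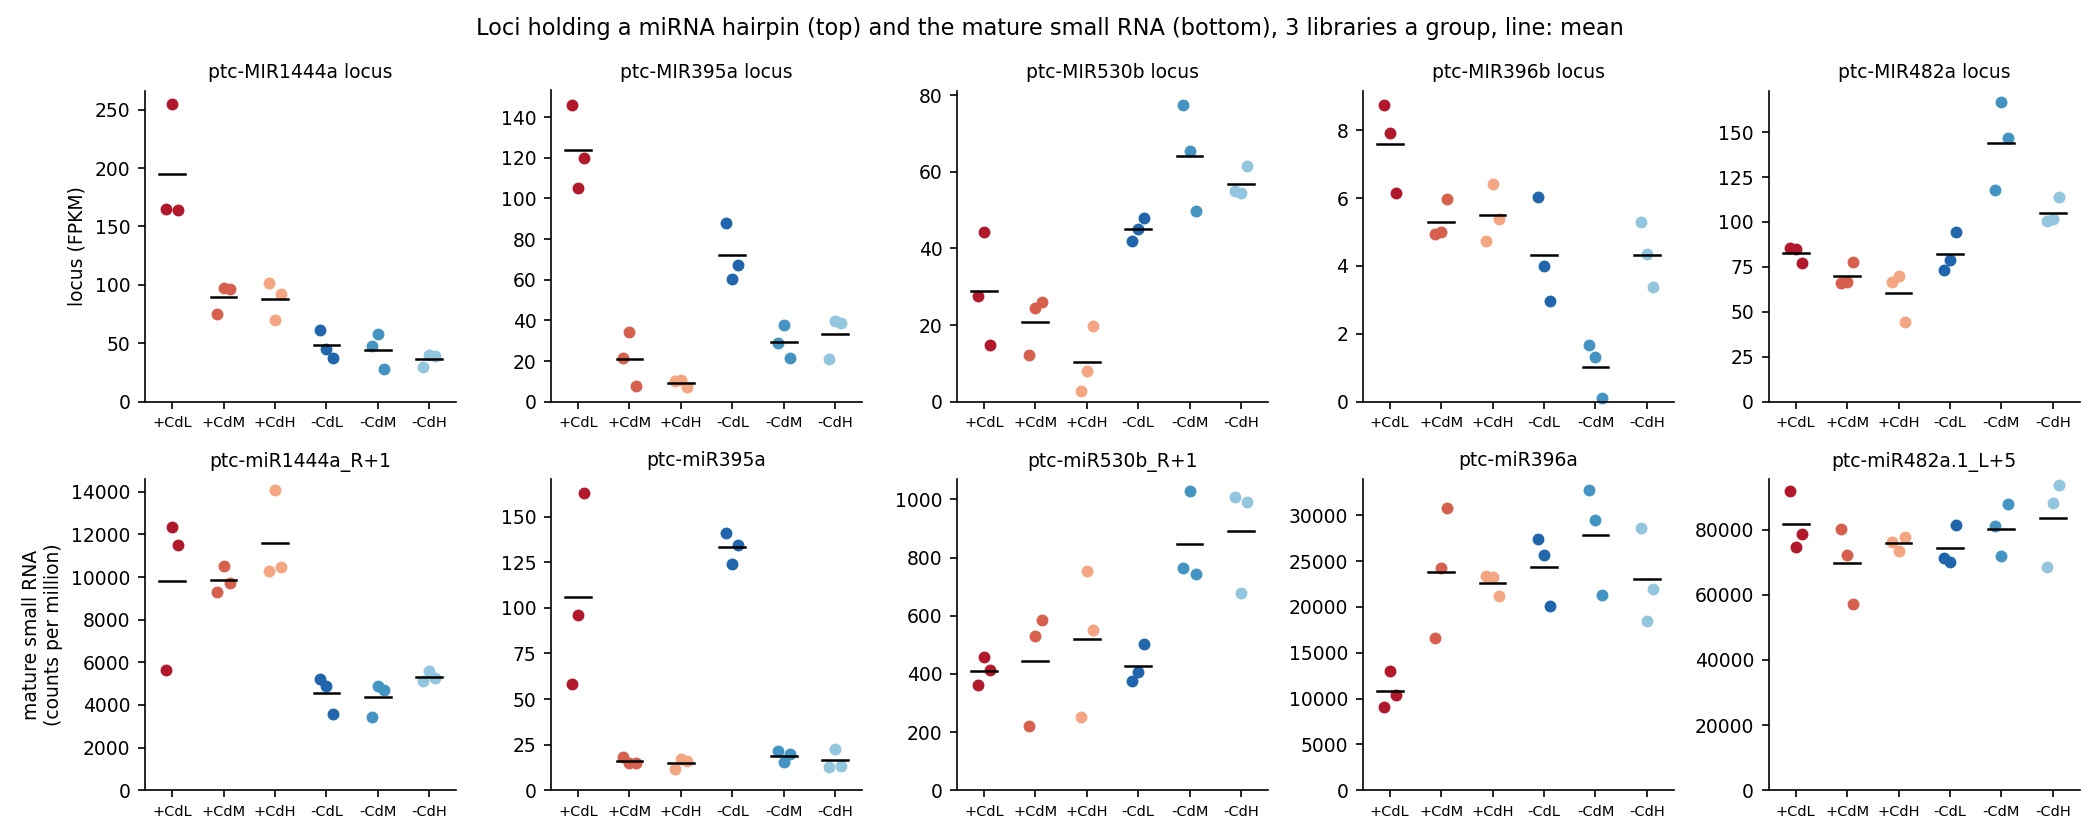
Top, FPKM of 5 loci that hold a poplar hairpin; bottom, CPM of the mature strand in the small RNA libraries; groups on the x axis, points for 3 libraries and lines for means. For MIR1444a the +Cd libraries lie above the -Cd libraries in both rows, for MIR395a the low-sulfate libraries lie above the rest in both rows, and for MIR396b the +CdL libraries are high on top and low below.

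Cut sites from the degradome, which sequences the 5′ ends of cleaved messenger RNA, also touch transcripts without a gene. In each of the +Cd pool and the -Cd pool, 41 of 5250 entries have no gene, and they name 14 transcripts and 22 small RNAs. The tables do not tie these transcript numbers to the loci above, so no locus is named for them.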

How the data were processed

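Leaf messenger RNA (18 libraries), small RNA (18 libraries) and degradome (2 pooled libraries) data were used as deposited. The authors deposited FPKM per locus, small RNA read counts that need not be whole (estimated counts), a normalised small RNA signal, and degradome read counts, signal and a target score, per the file headers. TopHat2 2.1.1 is named in the submitters' processing notes. Genome build, strand and the program behind the FPKM values: not given in the sources used here. Loci were taken by their missing identifier. The loci, lists and tests were chosen with earlier results of these data known.

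Values were tested as log2(FPKM + 1) with limma 3.58.1 in R 4.3.3 (trend and robust steps), over all 18 libraries with 6 group means, keeping 23166 loci whose mean reached 1 FPKM. P-values were adjusted by Benjamini-Hochberg over all tested loci and called under 0.05. A fold change on this scale understates that of low loci. Exact zeros can be failed estimates. FPKM files give no depth, so the worth of 1 fragment was estimated per library from low values, under 2 settings (spans under 1000 bases and values up to 3.5 fragments, or under 500 bases and up to 5.5 fragments). The rescaled values were chosen after seeing the data. Small RNA counts were scaled to the reads assigned in each library (CPM), which are not its whole depth, and were not tested. Intervals for counting error were not computed, since true counts are not known for FPKM. The scripts were tested on simulated data. Named loci were the 10 highest means, up to 3 called loci with the largest increase and 3 with the largest decrease per Cd or sulfate comparison (groups separate, or matched group means moving the same way), the 3 smallest interaction p-values, the longest and shortest loci, and those holding a listed hairpin. Degradome and normalised small RNA values enter no comparison.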

Additional observations from a re-analysis of the deposited data

Results flagged for a closer look

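At 12 named or hairpin loci the Cd effect differed between sulfate supplies by the interaction test of limma, with Benjamini-Hochberg adjusted p over all tested loci. The smallest belonged to XLOC_001643 (adjusted p = 0.000588), XLOC_006237 (0.00128) and XLOC_030099 (0.00153). XLOC_012117 (MIR6438b) had 0.00593 and XLOC_023314 had 0.00836. XLOC_033086 had 0.0272, XLOC_008344 had 0.0289 and XLOC_002588 had 0.0321. XLOC_019531 (MIR482a and MIR1448) had 0.0323, XLOC_038862 had 0.0345, XLOC_036969 had 0.0382 and XLOC_005710 (MIR395a) had 0.0464. After rescaling, XLOC_033086 (0.0851), XLOC_038862 (0.0543), XLOC_005710 (0.0512) and XLOC_019531 (0.0502) lost the call under the first setting. Under the second setting XLOC_033086 (0.0514) and XLOC_038862 (0.0561) lost it.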

How the results depend on the processing

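With a minimum mean of 5 FPKM, 102 loci were called with Cd averaged over sulfate, 77 at middle sulfate, 77 at low against middle sulfate and 27 for the interaction, because fewer loci were tested (305). Fits of the compared groups alone called 66 with Cd at high sulfate and 10 at high against middle sulfate. That last comparison, 17 as reported, gave 10 with log2(FPKM + 0.1), 8 without a filter, 7 after quantile normalization, 9 with the replicate block and 10 after rescaling; the cause was not tested. Leaving out 1 library at a time gave 142 to 167 calls with Cd averaged over sulfate, 3 to 5 at low, 94 to 134 at middle and 65 to 108 at high sulfate, 104 to 140 at low against middle sulfate, 0 to 25 at high against middle sulfate and 25 to 46 for the interaction. The share of loci reaching the minimum, 85.3%, was 47.8% at 5 FPKM and 93.1% by the highest group mean. The median distance of 2078 bases was 4514 to tested identified loci. Replicate numbers showed no pairing of the libraries. With each locus taken relative to a mean of its libraries, same-numbered libraries had correlations of -0.288 to 0.268 (45 pairs, 7 over 0.1). Differently numbered libraries had -0.37 to 0.304 (90 pairs, 19 over 0.1). With the replicate block the counts were 165 (Cd averaged), 3, 126 and 100 (low, middle, high sulfate), 137 (low against middle) and 37 (interaction). Of 896 alternatives for 33 named results, 815 kept the call, 81 lost it and 0 reversed. Short loci rest on few estimated fragments, which limits what their calls show.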
